A study of Homo sapiens with 8 samples.

Results

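The genes described here are 10 regulators of epithelial identity and of the epithelial-mesenchymal transition (EMT), chosen by name. They are the splicing factors ESRP1 and ESRP2, the epithelial transcription factors GRHL1, GRHL2, OVOL1 and OVOL2, and the repressors of epithelial genes ZEB1, ZEB2, SNAI1 and SNAI2. The table of 33221 genes held a row for 9 of the 10, and OVOL1, with no row, was not detected. Of these, 8 had enough reads to be tested among 22727 genes, and GRHL2, with at most 8 counts in a library, did not.

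EMT is the program by which epithelial cells loosen their junctions and take on a migratory form. ZEB1, ZEB2, SNAI1 and SNAI2 encode zinc-finger factors that bind E-box motifs and repress junction genes such as CDH1 (E-cadherin). On the other side, OVOL and grainyhead-like (GRHL) factors keep epithelial genes active and repress ZEB1, while ESRP1 and ESRP2 are RNA-binding proteins that direct the epithelial form of splicing in transcripts such as CD44, FGFR2 and CTNND1. ZEB1 and ZEB2 repress the miR-200 family of microRNAs and are repressed by it, a loop that is well known in carcinoma cells.

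RNA-seq of poly(A) RNA was deposited for 8 libraries in 4 groups of 2. PC3 EphA2 KO cells were infected with a CRISPR/Cas9 lentivirus against EphA2, a receptor tyrosine kinase for ephrins, and PC3 control cells with a non-targeting lentivirus, both for 72 h. DU145 EphA2 OE cells were transfected with Lipofectamine and an EphA2 plasmid, and DU145 control cells with a control plasmid, both for 48 h. PC3 and DU145 are human prostate carcinoma lines; neither a selected clone nor separate cultures for the replicates are stated, so p-values measure the spread between libraries, which may be technical. The column names of the control libraries are not repeated in the labels and were assigned by convention, so the fold changes of the tested regulators and of the lists were also computed with both control groups exchanged.

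Library totals ran from 57571919 to 60951530 counts, and 3 counts correspond to about 0.05 CPM, counts scaled to a common library total. EPHA2 averaged 39.7 ± 2.86 FPKM in PC3 EphA2 KO and 55.4 ± 0.371 FPKM in PC3 control libraries, and 75.2 ± 8.25 FPKM in DU145 EphA2 OE and 58.9 ± 0.120 FPKM in DU145 control libraries (SD, n = 2 each); in edgeR the adjusted p was 0.415 and 0.458, and in DESeq2 0.0150 and 0.224. The epithelial markers EPCAM, KRT8, KRT18, KRT19 and CDH1 together made 1425 to 1892 CPM, while 7 of the 8 stromal, endothelial and blood cell markers in the table averaged under 1 CPM, the exception being CD68. CTNNA1, which PC3 is known to lack by deletion, had 22247 to 28671 counts in the libraries labelled PC3, so it did not bear out that label. It averaged 435 ± 35.3 CPM in the libraries labelled DU145 and 437 ± 43.5 CPM in those labelled PC3 (SD, n = 4 each). Libraries of different labelled lines correlated at r = 0.983 to 0.987, and different groups of the same labelled line at r = 0.981 to 0.986. Replicates of the same group correlated at r = 0.982 to 0.988, a range that overlaps both. The groups are therefore named by their labels, and a difference between lines is a difference between labels. Wherever a line is named below, the labelled line is meant.

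ZEB1 and ZEB2 share their regulator, so its sequences are shown beside them. The mature miR-200 family, from RefSeq on GRCh38.p14, falls into 2 groups by the seed at bases 2 to 8, printed in capitals:
hsa-miR-200b-3p: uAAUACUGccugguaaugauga
hsa-miR-200c-3p: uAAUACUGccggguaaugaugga
hsa-miR-429: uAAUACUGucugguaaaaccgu
hsa-miR-200a-3p: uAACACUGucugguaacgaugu
hsa-miR-141-3p: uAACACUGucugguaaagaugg
Their matches in an mRNA read CAGTATT and CAGTGTT. The 3′ UTR of ZEB1 (GENCODE transcript ENST00000446923, 2549 bases, sense strand searched) held 9 matches, 6 of CAGTATT and 3 of CAGTGTT. That of ZEB2 (ENST00000636471, 5370 bases) also held 9, with 5 and 4. Among other coding genes with a 3′ UTR within 20% of that length, 46.6% of 2349 and 72.3% of 1102 held at least 1 match. At least 9 matches were held by 0 of the 2349 and 1 of the 1102. One match of each kind from each gene is printed below with the match in capitals:
ZEB1, chr10:31527618-31527643, plus strand: attgttttatcttatCAGTATTatca
ZEB1, chr10:31528782-31528807, plus strand: tgagatttgatttaaCAGTGTTatgt
ZEB2, chr2:144389049-144389074, minus strand: cgcactaccatacatCAGTATTttta
ZEB2, chr2:144388666-144388691, minus strand: cctttgcaccagcttCAGTGTTaagc
A match is a description of the letters and not a measured site. Poly(A) RNA-seq does not measure mature microRNAs, and of their precursors the libraries held little: MIR200CHG, the host transcript of miR-200c and miR-141, had 0 and 7 counts in PC3 EphA2 KO, 24 and 24 in PC3 control, 42 and 11 in DU145 EphA2 OE and 15 and 10 in DU145 control libraries.

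Splicing and transcription regulators of both kinds were present together in every library. FPKM scales fragments to transcript length and to library size. Levels of different genes can be set side by side in it only as far as the lengths used are right. By median FPKM over the 8 libraries the order was ESRP2 (4.53, range 3.48 to 6.55), SNAI1 (2.68, 1.74 to 3.07), ZEB1 (2.50, 2.23 to 3.19), ESRP1 (1.42, 0.329 to 2.02), SNAI2 (1.08, 0.960 to 1.67), OVOL2 (1.02, 0.629 to 1.29), GRHL1 (0.793, 0.616 to 1.22), ZEB2 (0.0315, 0.0154 to 0.0552) and GRHL2 (0, 0 to 0.0178). ESRP2 lay above SNAI1 in every library, the ranges of SNAI1 and ZEB1 overlapped, and those of ESRP1, SNAI2, OVOL2 and GRHL1 overlapped each other. ZEB2 and GRHL2 stood apart at the low end.

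The length behind the FPKM changes this order. Counts and FPKM together imply a length of 30807 to 31622 bases for ZEB2, against 9583 bases for its longest coding transcript in GENCODE 29, and 9396 to 9493 bases for GRHL1, against 3563 bases. The implied lengths of the other 7 genes were also longer than their longest coding transcripts, so FPKM gives lower levels than that length would, most of all for ZEB2 and GRHL1. CPM per kilobase of the longest coding transcript had medians of 7.37 for ESRP2, 4.08 for ZEB1, 3.20 for SNAI1, 2.17 for ESRP1, 2.1 for GRHL1, 1.73 for SNAI2, 1.71 for OVOL2 and 0.103 for ZEB2. On this scale ZEB1 stood above SNAI1 and GRHL1 above SNAI2 and OVOL2, while ZEB2 remained low with 29 to 100 counts a library.

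**Figure D1:**
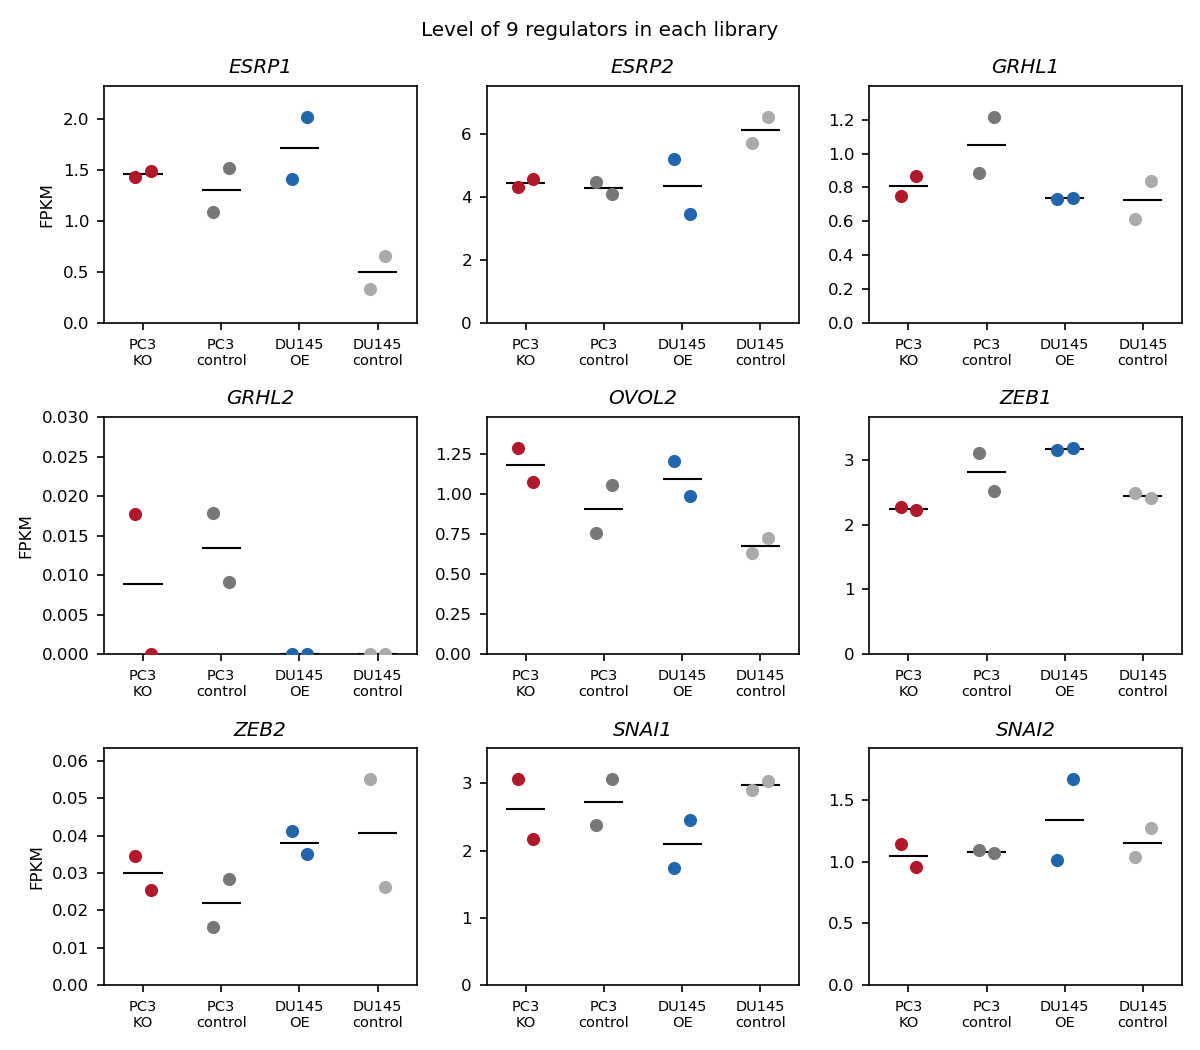
FPKM of the 9 regulators with a row in the table, in each of the 8 libraries (points; bars are group means, n = 2), with each vertical axis starting at 0. ESRP1 is lowest in both DU145 control libraries, at 0.329 and 0.661 FPKM, while ZEB2 and GRHL2 stay at or under 0.0552 FPKM in every library.

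The overexpression comparison held the largest difference among the regulators, at ESRP1. ESRP1 (ENSG00000104413, GRCh38 chromosome 8, 94641074 to 94707466, plus strand) is the better known of the epithelial splicing regulators. It stood at 1.41 and 2.02 FPKM in DU145 EphA2 OE libraries (471 and 677 counts), against 0.329 and 0.661 FPKM in DU145 control libraries (114 and 230 counts). Both overexpression libraries lay above both of their controls, and the controls lay farther apart from each other on the log scale than the replicates of any other group. The means were 1.72 ± 0.431 FPKM in DU145 EphA2 OE and 0.495 ± 0.235 FPKM in DU145 control libraries (SD, n = 2 each), a fitted log2 fold change of 1.73 (SE 0.36) or 3.31-fold. In edgeR's quasi-likelihood test the unadjusted p was 0.00165, rank 111 of 22727 genes, and the adjusted p was 0.337; DESeq2 gave an adjusted p of 0.00151. In bulk RNA, fewer cells expressing a gene and less of its RNA per cell cannot be told apart.

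The level of ESRP1 that makes this difference is that of the DU145 control libraries. PC3 EphA2 KO libraries had 1.43 and 1.49 FPKM (502 and 530 counts), against 1.09 and 1.52 FPKM in PC3 control libraries (378 and 516 counts). These groups overlapped (log2 fold change 0.18, SE 0.35, edgeR adjusted p = 0.975). Both overexpression libraries were within or above this range. With the control groups exchanged, the overexpression difference of ESRP1 was 0.39 (adjusted p = 0.931) and the knockout difference 1.52 (adjusted p = 0.501), so the line in which it appears rests on the reading of the control columns.

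ESRP2 (ENSG00000103067, chromosome 16, 68229033 to 68238102, minus strand), the paralog with overlapping splicing targets, had the opposite sign in the overexpression. It stood at 5.20 and 3.48 FPKM in DU145 EphA2 OE libraries, against 5.73 and 6.55 FPKM in DU145 control libraries. The groups did not overlap, though the overexpression libraries were far apart. The log2 fold change was -0.54 (SE 0.20, unadjusted p = 0.0313, edgeR adjusted p = 0.516), and it was -0.26 without DU145 EphA2 OE replicate 2 and -0.89 without replicate 1. In the knockout ESRP2 had 4.31 and 4.59 FPKM, against 4.48 and 4.11 FPKM in PC3 control libraries, which overlapped (log2 fold change 0.07, SE 0.20, adjusted p = 0.989). A row of the table, AC020978 (ENSG00000262160), overlaps ESRP2 on the same strand with 1206 and 982 counts in PC3 EphA2 KO, 618 and 263 in PC3 control, 1243 and 906 in DU145 EphA2 OE and 861 and 1136 in DU145 control libraries, so reads could be divided between them.

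Together the ESRP genes differed more in their split than in their sum. ESRP1 made 21.3% and 36.7% of their summed FPKM in DU145 EphA2 OE libraries and 5.43% and 9.17% in DU145 control libraries. It made 25.0% and 24.5% in PC3 EphA2 KO libraries and 19.6% and 27.0% in PC3 control libraries. The sum was 6.06 ± 0.792 FPKM in DU145 EphA2 OE and 6.64 ± 0.814 FPKM in DU145 control libraries, and 5.91 ± 0.238 FPKM in PC3 EphA2 KO and 5.60 ± 0.0392 FPKM in PC3 control libraries (SD, n = 2 each). With the controls exchanged, the DU145 EphA2 OE shares would overlap those of their controls, and the PC3 EphA2 KO shares would not. The line in which the split differed thus rests on the reading of the control columns. The split was chosen after the values were seen and is given without a test.

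**Figure D2:**
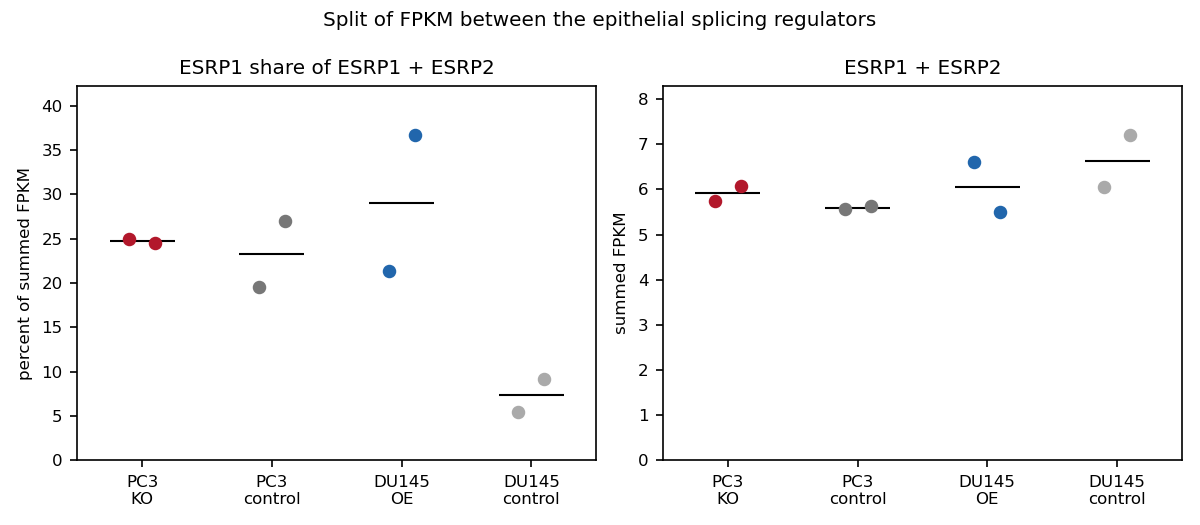
Left, share of ESRP1 in the summed FPKM of ESRP1 and ESRP2 in percent; right, that sum in FPKM, for each library (points; bars are group means, n = 2). The DU145 control libraries lie at 5.43% and 9.17%, below the other 6 libraries, while the sums of all libraries lie between 5.50 and 7.21 FPKM.

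Of the grainyhead-like factors, GRHL1 was measurable and GRHL2 and GRHL3 were near the floor. GRHL1 (ENSG00000134317, chromosome 2, 9951693 to 10002277, plus strand), a regulator of epidermal and junction genes, had 0.748 and 0.869 FPKM in PC3 EphA2 KO libraries, against 0.883 and 1.22 FPKM in PC3 control libraries. The groups did not overlap, but the lower control library lay close to the higher knockout one (log2 fold change -0.36, SE 0.24, edgeR adjusted p = 0.826). It had 0.734 and 0.736 FPKM in DU145 EphA2 OE libraries, between the 0.616 and 0.839 FPKM of DU145 control libraries (log2 fold change -0.03, SE 0.24, adjusted p = 0.990). GRHL2 (ENSG00000083307, chromosome 8, 101492439 to 101669726, plus strand), known as an activator of CDH1 and of the ESRP genes and a repressor of ZEB1, had 8 and 0 counts in PC3 EphA2 KO, 8 and 4 in PC3 control and 0 in each of the 4 libraries labelled DU145. A library at 0 allows up to about 0.05 CPM at a floor of 3 counts, and no fold change was computed. GRHL3, the remaining family member, had a median of 0.0776 FPKM over the libraries.

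OVOL2 (ENSG00000125850, chromosome 20, 17956979 to 18059188, minus strand), a zinc-finger repressor of ZEB1 and other EMT factors, was higher in both altered groups than in their controls, and neither difference passed the test. It had 1.21 and 0.986 FPKM in DU145 EphA2 OE libraries, against 0.629 and 0.726 FPKM in DU145 control libraries. In PC3 EphA2 KO libraries it had 1.29 and 1.08 FPKM, against 0.753 and 1.06 FPKM in PC3 control libraries. Neither pair of groups overlapped, by a small margin in the knockout. The overexpression log2 fold change was 0.66 (SE 0.31, unadjusted p = 0.0668, edgeR adjusted p = 0.583), and that of the knockout 0.40 (SE 0.30, adjusted p = 0.850). At 96 to 201 counts a library, and with the span of OVOL2 crossing the far more abundant SNX5 and MGME1, these values are among the least precise. The table has no row for OVOL1, and OVOL3 had a median of 0.0411 FPKM.

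ZEB1 (ENSG00000148516, chromosome 10, 31318495 to 31529813, plus strand) was lower with EphA2 knockout and higher with EphA2 overexpression in every library, by small amounts. It had 2.27 and 2.23 FPKM in PC3 EphA2 KO libraries (1391 and 1398 counts), against 3.11 and 2.52 FPKM in PC3 control libraries (1891 and 1507 counts). In DU145 EphA2 OE libraries it had 3.16 and 3.19 FPKM (1865 and 1888 counts), against 2.49 and 2.42 FPKM in DU145 control libraries (1492 and 1479 counts). The groups did not overlap in either line, and the PC3 control libraries were the only pair that lay far apart. The knockout log2 fold change was -0.30 (SE 0.13, unadjusted p = 0.0538, edgeR adjusted p = 0.755), and that of the overexpression 0.33 (SE 0.13, unadjusted p = 0.0406, adjusted p = 0.532). The difference of the responses, knockout minus overexpression, was -0.63 (SE 0.19, unadjusted p = 0.0109, adjusted p = 0.375) and rank 655 of 22727, so it did not pass the threshold; DESeq2 gave an adjusted p of 0.146.

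The directions of ZEB1 held with both control groups exchanged, at -0.16 in the knockout and 0.18 in the overexpression. Without PC3 control replicate 1 the knockout value was -0.15 and without replicate 2 it was -0.44. ZEB1-AS1, transcribed from the opposite strand, had 237 and 223 counts in PC3 EphA2 KO, 221 and 333 in PC3 control, 322 and 381 in DU145 EphA2 OE and 283 and 304 in DU145 control libraries. The use of strand in counting is not given in the sources used here, so reads of the antisense transcript may be among those of ZEB1. CDH1, a known repressed target of ZEB1, averaged 28.4 ± 1.04 FPKM in PC3 EphA2 KO and 21.1 ± 0.450 FPKM in PC3 control libraries, and 14.8 ± 0.662 FPKM in DU145 EphA2 OE and 19.3 ± 0.862 FPKM in DU145 control libraries (SD, n = 2 each; edgeR adjusted p = 0.415 and 0.368). DESeq2 gave CDH1 an adjusted p of 0.0128 in the knockout and 0.0190 in the overexpression. Its sign was opposite to that of ZEB1 in both comparisons, also with the controls exchanged (0.52 and -0.50). Most of the epithelial target genes listed with it, 20 of 26, had the same sign as ZEB1 in the overexpression, and 12 did with the controls exchanged. In the knockout 14 of 26 had the sign opposite to ZEB1, and 22 did with the controls exchanged.

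ZEB2 (ENSG00000169554, chromosome 2, 144364364 to 144520400, minus strand), the paralog of ZEB1, was nearly absent. It had 65 and 49 counts in PC3 EphA2 KO, 29 and 52 in PC3 control, 75 and 63 in DU145 EphA2 OE and 100 and 49 in DU145 control libraries. These groups overlapped in both lines, with a knockout log2 fold change of 0.47 (SE 0.53, edgeR adjusted p = 0.929) and an overexpression value of -0.12 (SE 0.52, adjusted p = 0.973). ZEB2 made 0.494% to 2.17% of the summed FPKM of the ZEB pair, a share that the long length assigned to it lowers.

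SNAI1 (ENSG00000124216, chromosome 20, 49982980 to 49988886, plus strand), which encodes the repressor SNAIL, had 1.74 and 2.45 FPKM in DU145 EphA2 OE libraries, against 2.91 and 3.04 FPKM in DU145 control libraries. The groups did not overlap (log2 fold change -0.55, SE 0.28, unadjusted p = 0.0828, edgeR adjusted p = 0.605). In PC3 EphA2 KO libraries it had 3.07 and 2.17 FPKM, against 2.38 and 3.06 FPKM in PC3 control libraries, with the knockout libraries on either side of the controls (log2 fold change -0.03, SE 0.27, adjusted p = 1). SNAI2 (ENSG00000019549, chromosome 8, 48917598 to 48921440, minus strand), which encodes SLUG, overlapped in both lines. It had 1.01 and 1.67 FPKM in DU145 EphA2 OE against 1.04 and 1.27 FPKM in DU145 control libraries, and 1.14 and 0.960 FPKM in PC3 EphA2 KO against 1.09 and 1.07 FPKM in PC3 control libraries. Its log2 fold changes were 0.17 (SE 0.28, adjusted p = 0.907) in the overexpression and -0.02 (SE 0.28, adjusted p = 1) in the knockout. SNAI2 made 36.7% and 40.6% of the summed FPKM of the SNAI pair in DU145 EphA2 OE libraries, against 26.3% and 29.5% in DU145 control libraries. In PC3 EphA2 KO libraries it made 27.1% and 30.6%, against 31.5% and 25.9% in PC3 control libraries. The implied length was 3870 to 3913 bases for SNAI2, against 2428 bases for its longest coding transcript. For SNAI1 it was 2010 to 2024 bases, against 1686 bases, so the lengths used lower the SNAI2 share. This split is given without a test.

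**Figure D3:**
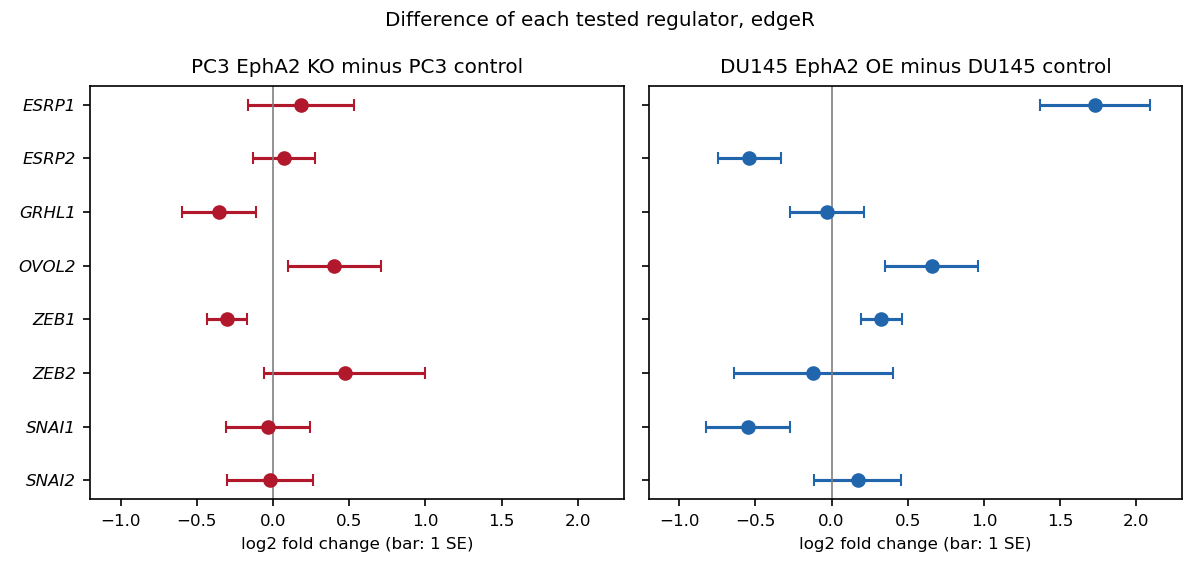
Fitted log2 fold change of the 8 tested regulators in edgeR with 1 SE, for PC3 EphA2 KO minus PC3 control (left) and DU145 EphA2 OE minus DU145 control (right). ESRP1 lies at 1.73 in the overexpression, and ZEB1 lies at -0.30 in the knockout and 0.33 in the overexpression; 0 of the 8 passed an adjusted p of 0.05 in either comparison.

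Over the knockout comparison, 0 of the 8 tested regulators passed an adjusted p of 0.05 in edgeR, where 0.0264% of all genes did. DESeq2 also called 0 of them (0.836% of all genes), and 0 had an unadjusted p under 0.05 (6.62% of all genes). The libraries did not overlap for 3 of 8, 1 higher (OVOL2) and 2 lower (GRHL1 and ZEB1), against 43.1% of all genes (19.8% higher and 23.3% lower). Their median log2 fold change was 0.03, against -0.002 over all genes tested.

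Over the overexpression comparison, edgeR called 0 of 8 (0.0396% of all genes), and DESeq2 called 1, ESRP1 (1.36% of all genes). An unadjusted p under 0.05 was reached by 3 of 8, ESRP1, ESRP2 and ZEB1, against 9.06% of all genes. The libraries did not overlap for 5 of 8, 3 higher (ESRP1, OVOL2 and ZEB1) and 2 lower (ESRP2 and SNAI1), against 37.5% of all genes (23% higher and 14.5% lower). The median log2 fold change was 0.07, against 0.01 over all genes tested. Epithelial and EMT regulators were thus found on both sides of 0.

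In the difference of the responses, edgeR and DESeq2 called 0 of 8 (0.0308% and 1.8% of all genes), and ESRP1 (-1.54, SE 0.50, unadjusted p = 0.0159, adjusted p = 0.410) and ZEB1 had an unadjusted p under 0.05 (10.1% of all genes). ESRP2 differed by 0.61 (SE 0.29, adjusted p = 0.526) and OVOL2 by -0.25 (SE 0.43, adjusted p = 0.885). Knockout and overexpression also differ in labelled line, delivery and time, which cannot be told apart from the direction of the EphA2 change.

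**Figure D4:**
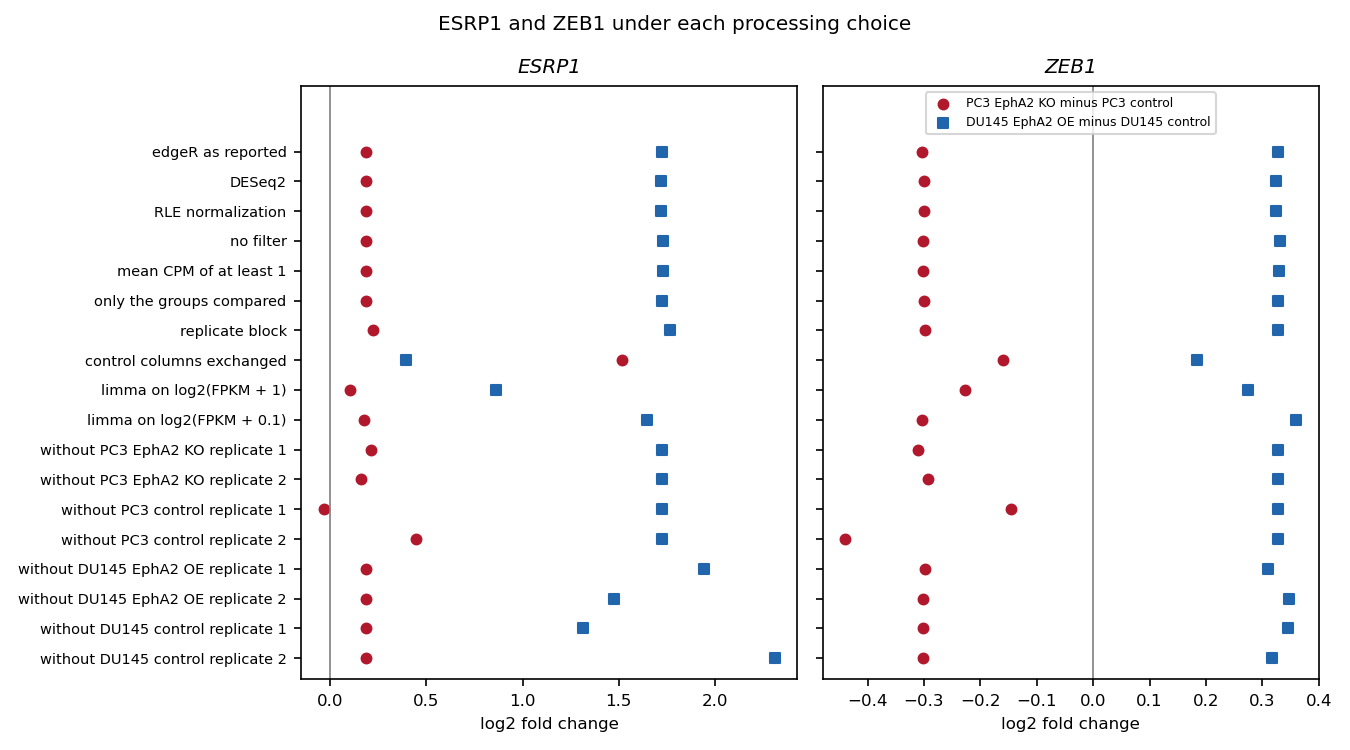
Log2 fold change of ESRP1 (left) and ZEB1 (right) under each processing choice, with circles for PC3 EphA2 KO minus PC3 control and squares for DU145 EphA2 OE minus DU145 control. The overexpression value of ESRP1 runs from 0.39 with the control columns exchanged to 2.31 without DU145 control replicate 2, while ZEB1 stays below 0 in the knockout and above 0 in the overexpression under every choice shown.

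Between the control libraries of the lines, the same DU145 control libraries enter as in the overexpression, so the values are set side by side and not counted as further evidence. The control groups also differ in delivery (lentivirus or transfected plasmid) and in time (72 h or 48 h). Labelled line, delivery and time therefore cannot be told apart in this comparison. ESRP1 was lower in DU145 control than in PC3 control libraries (log2 fold change -1.33, SE 0.36, edgeR adjusted p = 0.381, DESeq2 adjusted p = 0.0343), and ESRP2 was higher (0.57, SE 0.20, adjusted p = 0.481 and 0.248). GRHL1 (-0.47, SE 0.24, adjusted p = 0.624), OVOL2 (-0.37, SE 0.31, adjusted p = 0.765) and ZEB1 (-0.14, SE 0.13, adjusted p = 0.792) were lower in all DU145 control libraries without passing. edgeR called 0 of 8 (0.0572% of all genes) and DESeq2 1 (1.57%), with 2 at an unadjusted p under 0.05 (9.01%), and the libraries did not overlap for 5 of 8 (44.1% of all genes), 1 higher (16.4%) and 4 lower (27.7%).

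The counts of list genes below can be read against all genes, of which 6.62% in the knockout and 9.06% in the overexpression had an unadjusted p under 0.05, and 0.836% and 1.36% were called by DESeq2. The median log2 fold change over all genes tested was -0.002 in the knockout and 0.01 in the overexpression. Genes of a list were measured in the same libraries, so a count of signs is not a count of independent observations. Of 14 other epithelial transcription factors, 13 had a row and 12 were tested. edgeR and DESeq2 called 0 of them in either comparison, with 3 at an unadjusted p under 0.05 in the overexpression and 1 in the knockout. In the overexpression 10 had a positive and 1 a negative log2 fold change (median 0.49), and in the knockout 3 and 9 (median -0.41). In the difference of the responses 1 was positive and 11 negative (median -1.18), with 4 at an unadjusted p under 0.05 against 10.1% of all genes, and between DU145 control and PC3 control libraries 3 were positive and 9 negative (median -0.39). Of the 13 with a row, 7 were above 1 FPKM in every library and 6 in none. The sign counts and medians of this list therefore include genes near the floor. With the controls exchanged, the medians were 0.11 in the overexpression, 0.28 in the knockout and -0.13 in the difference, so the sign in the knockout and the size in the other comparisons rest on the reading of the control columns. ELF3, an ETS factor of simple epithelia, was the highest of the abundant ones in the overexpression, at 1.5 and 3.97 FPKM in DU145 EphA2 OE libraries, against 1.38 and 1.11 FPKM in DU145 control libraries. These values do not overlap, but 1 overexpression library made most of the difference (log2 fold change 1.08, SE 0.38, edgeR adjusted p = 0.503; -0.54 with the controls exchanged).

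Of 14 other EMT transcription factors, 13 had a row and 12 were tested, with 6 on each side of 0 in both comparisons, 0 called by edgeR or DESeq2 and 1 at an unadjusted p under 0.05 in each. TWIST2 was the most abundant of the TWIST, SNAI and ZEB factors with a row, at 7.63 to 11.1 FPKM. PRRX2, a homeobox factor of mesenchyme, had opposite signs in the 2 comparisons: it had 63 and 111 counts in PC3 EphA2 KO against 252 and 203 in PC3 control libraries, and 204 and 166 counts in DU145 EphA2 OE against 78 and 105 in DU145 control libraries. The log2 fold changes were -1.41 (SE 0.36, edgeR adjusted p = 0.555) and 1.01 (SE 0.36, adjusted p = 0.506), and their difference was -2.42 (SE 0.51, edgeR adjusted p = 0.240, DESeq2 adjusted p = 0.00945). With the controls exchanged, the values of PRRX2 were -0.14, -0.25 and 0.11.

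Of the other splicing regulators, 13 of 13 were tested and 0 called by edgeR or DESeq2, with 1 (knockout) and 2 (overexpression) at an unadjusted p under 0.05. Log2 fold changes were positive for 5 and negative for 8 in the knockout (median -0.07), and in the overexpression 3 and 10 (median -0.10). MBNL2, a muscleblind-like splicing factor, had the lowest value in both, -0.70 (SE 0.25, edgeR adjusted p = 0.707) and -0.51 (SE 0.25, adjusted p = 0.595). Of 11 genes with exons that ESRP proteins are known to direct, 11 were tested and 0 called by edgeR or DESeq2, with 2 at an unadjusted p under 0.05 in each comparison. CD44, whose variant exons are the classic ESRP1 target, had 3.98 and 3.71 FPKM in PC3 EphA2 KO against 5.03 and 6.13 FPKM in PC3 control libraries, and 5.91 and 6.24 FPKM in DU145 EphA2 OE against 3.36 and 4.59 FPKM in DU145 control libraries. Neither pair overlapped (log2 fold changes -0.52 and 0.56, SE 0.17 each, edgeR adjusted p = 0.674 and 0.457), and with the controls exchanged the values were -0.08 and 0.13. The gene totals do not show which exons were used, so splicing itself was not analysed here.

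Genes that the ZEB and SNAI repressors are known to act on were mostly expressed. Of 26 epithelial target genes, 23 were above 1 FPKM in every library, and edgeR called 0 of 26 in either comparison. In the overexpression 20 had a positive and 6 a negative log2 fold change (median 0.25), and 11 had an unadjusted p under 0.05. DESeq2 called 7, of which CLDN7, EPCAM, SPINT1, JUP and MAL2 were higher and CDH1 and KRT8 lower. CLDN7, a tight junction claudin, had 2.70 and 4.90 FPKM in DU145 EphA2 OE libraries, against 1.38 and 1.26 FPKM in DU145 control libraries. Both overexpression libraries lay above both controls (log2 fold change 1.46, SE 0.28, edgeR adjusted p = 0.286, DESeq2 adjusted p = 0.000721). As with ESRP1, CLDN7 was also lower in DU145 control than in PC3 control libraries (-1.43, SE 0.28, edgeR adjusted p = 0.258), and with the controls exchanged its overexpression value was 0.03. In the knockout 14 were positive and 12 negative (median 0.02), with 1 at an unadjusted p under 0.05, and DESeq2 called 1, CDH1. With the controls exchanged, 12 were positive and 14 negative in the overexpression (median -0.02) and 22 and 4 in the knockout (median 0.34), so the comparison in which most of them were positive also rests on the reading of the control columns.

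Of 18 mesenchymal genes, 17 had a row and 12 were tested, and edgeR called 0, with 3 at an unadjusted p under 0.05 in the overexpression and 0 in the knockout. In the overexpression 5 were positive and 7 negative (median -0.15), and in the knockout 8 and 3 (median 0.16); with the controls exchanged, the medians were 0.05 and 0.16. DESeq2 called 0 in the knockout and 2 in the overexpression, TNC (0.48, SE 0.10, edgeR adjusted p = 0.328), a matrix glycoprotein, as higher and SPARC as lower. SPARC had 42 and 93 counts in DU145 control libraries and 0 in both DU145 EphA2 OE libraries and every library labelled PC3. With the controls exchanged, its overexpression value was 0, so its call rests on the reading of the control columns. TNC was lower in DU145 control than in PC3 control libraries (-0.44, SE 0.10, edgeR adjusted p = 0.307, DESeq2 adjusted p = 0.0304). VIM, the mesenchymal intermediate filament, was abundant in every library at 239 to 379 FPKM, while CDH2 (N-cadherin) had 0 counts in 7 libraries and 4 in 1.

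Corepressors that SNAIL and ZEB proteins recruit, 13 of 13 tested, had medians of 0.03 in the knockout and -0.13 in the overexpression, with 0 called by edgeR or DESeq2 and 1 and 2 at an unadjusted p under 0.05. Transforming growth factor beta, an inducer of SNAI1 and ZEB1, acts through SMAD proteins, and 11 of 11 genes of that pathway were tested with 0 called by edgeR and 4 (knockout) and 3 (overexpression) at an unadjusted p under 0.05. Their medians were -0.08 and 0.02. SMAD4, the common mediator, had 282 and 328 counts in PC3 EphA2 KO libraries, against 1345 and 1100 counts in PC3 control libraries. In DU145 EphA2 OE libraries it had 1646 and 968 counts, against 894 and 1001 counts in DU145 control libraries. The knockout libraries were the lowest of all 8 by a wide margin (log2 fold change -2.02, SE 0.28, edgeR adjusted p = 0.138, DESeq2 adjusted p = 8.0e-09), whereas the overexpression groups overlapped (0.46, SE 0.26, adjusted p = 0.648). SMAD2, a receptor-activated partner, had 2818 and 2073 counts in PC3 EphA2 KO against 3979 and 4205 in PC3 control libraries (-0.76, SE 0.16, edgeR adjusted p = 0.421, DESeq2 adjusted p = 0.0117). These were the 2 genes of the pathway that DESeq2 called in the knockout, and it called 0 in the overexpression. With the controls exchanged, SMAD4 in the knockout was at -1.70 (edgeR adjusted p = 0.196) and SMAD2 at -0.12.

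**Figure D5:**
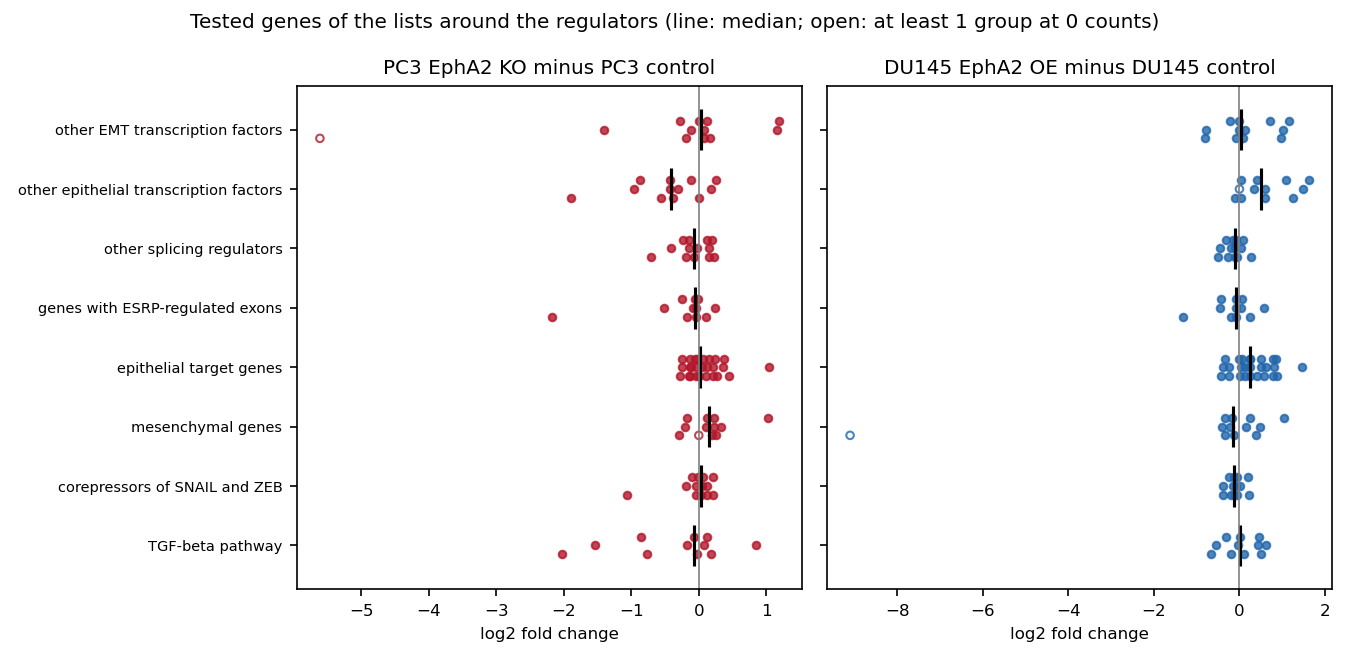
Fitted log2 fold change of each tested gene of 8 lists around the regulators (points), with list medians (vertical lines), for PC3 EphA2 KO minus PC3 control (left) and DU145 EphA2 OE minus DU145 control (right). Open points have 0 counts in at least 1 of the groups, so their fitted value is no measure of size. The other epithelial transcription factors have medians of -0.41 and 0.49, while the medians of the remaining lists lie between -0.15 and 0.25. Of the 13 other epithelial transcription factors with a row, 6 were above 1 FPKM in no library.

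By pattern across the 8 libraries, the 3 genes most like ESRP1 in log2(CPM + 1), among 11989 genes with a mean CPM of at least 5, were RMI2 (Pearson r = 0.971), SNHG19 (0.968) and GHITM (0.967). For ZEB1 the first 2 were XRCC2 (0.967) and CRIP1 (0.961). For GRHL2 the 3 were IFNGR1 (0.934), CHTF8 (0.927) and FAM104A (0.910), a likeness that rests on at most 8 counts in a library. These are descriptions over 8 libraries that share groups and depth, with the highest values picked among many genes.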

How the data were processed

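The authors deposited 1 table with, per gene, whole-number counts that were not normalized and FPKM values, scaled by the authors to transcript length and library size. The GRCh38 build and the tools StringTie 2.1.6, HISAT2 2.2.1, cutadapt 1.9, edgeR and DESeq2 are named in the submitters' processing notes; what each did is not given in the sources used here. All 16 value columns were mapped to libraries. The control columns were read by convention. The quasi-likelihood test of edgeR 4.0.16, under R 4.3.3, used 4 group means over 8 libraries (4 residual degrees of freedom), filterByExpr (minimum count 10, minimum total 15), TMM factors (0.973 to 1.03) and Benjamini-Hochberg adjustment over 22727 genes at 0.05; SEs are log2 fold changes, without sign, divided by the root of F. The script was tested on simulated data with 100 genes changed 2-fold and 100 changed 4-fold. In the knockout comparison edgeR called 14 and 40 of them, and in the overexpression comparison 20 and 41, with 5 false calls in each. Most differences of these sizes were thus missed. Alternatives were DESeq2 1.42.0, other normalization and filters, a replicate block, exchanged controls, limma 3.58.1 on log2 FPKM, and leaving out each library. With 2 libraries against 2, a permutation test of 1 gene cannot reach 0.05. Replicates were distinct (chi-square per degree of freedom 38.9 to 84.3), and DU145 EphA2 OE replicates differed most (median absolute log2 difference 0.180, against 0.0872 to 0.116 in the other groups).

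The members and the gene lists were chosen with earlier results of these data known. Named genes are all members, EPHA2 and CDH1, and, in each list and comparison, genes past the threshold and those with the highest and lowest log2 fold change at a mean CPM of at least 1; other named genes (SMAD2, SPARC, VIM, CDH2, TWIST2, GRHL3, OVOL3, CTNNA1, CLDN7 in the control comparison and those that DESeq2 called) were chosen after their values were seen. List genes without a row (TWIST1, ELF5, MMP2, DCN, LUM, POSTN and CD3E) were not analysed here. Among genes named by rule, including those most like ESRP1, ZEB1 and GRHL2 across libraries, some are not reported here.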

Additional observations from a re-analysis of the deposited data

Results flagged for a closer look

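ZEB1 separated its libraries in opposite directions in the 2 comparisons: both PC3 EphA2 KO libraries lay below both PC3 control libraries, and both DU145 EphA2 OE libraries lay above both DU145 control libraries. The difference of the log2 fold changes, knockout minus overexpression, was -0.63 (SE 0.19). Its test in edgeR did not pass over all genes (adjusted p = 0.375), nor did that in DESeq2 (adjusted p = 0.146). It is listed because every library of each altered group lay on 1 side of its controls, and the sides differ. Groups that do not overlap are common, holding for 43.1% of all genes between knockout and control and for 37.5% between overexpression and control. In the directions of ZEB1 the shares were 23.3% (lower in the knockout) and 23% (higher in the overexpression). The share of all genes that separate in both comparisons on opposite sides was not computed. With the control columns exchanged, the difference was -0.34 (adjusted p = 0.770). Without 1 library at a time the difference ran from -0.77 to -0.47, with a lowest adjusted p of 0.238.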

How the results depend on the processing

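Members past the threshold numbered 0 in all 4 comparisons under every alternative but DESeq2, which called 1 in the overexpression and 1 between controls, ESRP1 in both (1.72 and -1.33). Of all genes, DESeq2 called 190 in the knockout, 309 in the overexpression, 410 in the difference and 357 between controls. No paired numbers were apparent: the deviations of same-numbered libraries correlated at -0.027 to 0.054, and the replicate block left 0, 3, 3 and 3 genes called. Other counts of called genes that moved were 13 (knockout) and 16 (difference) with controls exchanged, 12 (knockout) and 25 (between controls) in limma with a pseudocount of 0.1, 23 (between controls) with 1, 4 (overexpression) without a filter, 19 (difference) at a mean CPM of at least 1, and 0 (overexpression) and 20 (between controls) when only the groups compared were fitted. Leaving out 1 library gave 6 to 27, 3 to 376, 11 to 323 and 4 to 114 genes; the most in the overexpression and the difference came without DU145 EphA2 OE replicate 1. The cause was not tested.

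Exchanging the controls reversed ESRP2 (-0.50), GRHL1 (0.11) and ZEB2 (-0.45) in the knockout, ESRP2 (0.032) and ZEB2 (0.80) in the overexpression, and ESRP1 (1.13), ESRP2 (-0.53), GRHL1 (0.62), OVOL2 (0.48) and ZEB2 (-1.26) in the difference. By construction it turned all 8 signs between controls: ESRP1 1.33, ESRP2 -0.57, GRHL1 0.47, OVOL2 0.37, ZEB1 0.14, ZEB2 -0.92, SNAI1 -0.18 and SNAI2 -0.15. In limma GRHL1 in the overexpression was 0.0092 and 0.026 with pseudocounts of 1 and 0.1. Without 1 library, signs turned for values near 0: in the knockout SNAI1 (-0.30 to 0.19), SNAI2 (-0.15 to 0.094) and ESRP1 (-0.033 to 0.45); in the overexpression ZEB2 (-0.55 to 0.50), SNAI2 (-0.20 to 0.47) and GRHL1 (-0.23 to 0.22); in the difference OVOL2 (-0.48 to 0.016), SNAI2 (-0.48 to 0.18) and ZEB2 (-0.027 to 1.09); and between controls ZEB1 (-0.28 to 0.013) and SNAI2 (-0.014 to 0.29). ESRP1 in the overexpression ran from 1.32 to 2.31, with a lowest adjusted p of 0.0943, and the other members kept their sign in every fit without 1 library.

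Depth limits GRHL2, at no more than 8 counts, and ZEB2, at no more than 100, where counting error alone is wide. With 2 libraries a group, a difference that missed the threshold is not shown to be absent.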
